A study of Mus musculus with 56 samples.

Results

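In this study, hearts of mice were sampled over a day while food was offered only in the light phase (daytime-restricted feeding, DRF) or only in the dark phase (nighttime-restricted feeding, NRF). The comparison described here lies within DRF and sets ZT12, when the lights go off and the feeding window closes, against ZT0, when the lights come on after a night without food (ZT, Zeitgeber time, counts hours from lights on). It uses 8 of the 56 heart libraries, 4 labelled DRF ZT12 and 4 labelled DRF ZT0, and was read across all listed genes, 22864 in number, of which 13863 had a mean of at least 1 TPM (a length-scaled share of all transcripts) over the 56 libraries and were tested. All groups consisted of C57BL/6J females that entered a 12 h:12 h light:dark cycle with free access to chow at 7 weeks of age, were put on restricted feeding for 7 days and were 9 weeks old at collection. The 4 libraries of DRF ZT24, the same clock time 24 h after ZT0, and the 4 each of NRF ZT0 and NRF ZT12, mice sampled at the same clock times but with food in the opposite phase, served as references. The labels number 4 samples per group without saying that each is a separate animal, so the p-values measure the spread between these samples, which may be technical.

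By way of background, the cardiac clock is a transcriptional loop in which BMAL1 (the product of Arntl) with CLOCK or NPAS2 drives the Per, Cry, Nr1d (REV-ERB) and PAR-bZIP genes, whose products feed back on the activators. Light sets the central clock in the brain, whereas the timing of meals can set clocks in other organs. The heart takes most of its energy from fatty acids, and a fast raises fatty acid uptake and oxidation genes through PPAR and FOXO factors, while a meal raises insulin and favours glucose use and lipid storage. Because food was given in the light phase, time of day and feeding state are joined in each regimen: ZT12 follows a day of feeding under DRF and a day of fasting under NRF.

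ZT12 differed from ZT0 in 1205 genes (8.69% of those tested, limma with Benjamini-Hochberg adjusted p below 0.05), of which 460 (3.32%) were higher and 745 (5.37%) lower at ZT12. Most differences were small. Differences are given throughout as ZT12 minus ZT0 on the log2(TPM + 1) scale with their standard error, a scale that understates the fold change of genes near 1 TPM. The median absolute difference of the called genes was 0.40, 379 differed by at least 0.5 (152 higher and 227 lower) and 63 by at least 1 (29 higher and 34 lower). At an unadjusted p below 0.05 there were 3132 genes. In 1966 of the tested genes (14.2%) the 4 libraries of one group did not overlap the 4 of the other, and this held for 988 (82.0%) of the called genes. The median over all tested genes was -0.014. Where leaving out 1 library ended a call, each such library is named with the gene, with the highest adjusted p that resulted. The balance of directions depended on the libraries and on the method. Without ZT12 replicate 4 there were 218 higher and 614 lower calls, without ZT0 replicate 1 238 and 497, and without ZT12 replicate 2 or ZT0 replicate 4 277 and 616 or 280 and 698. Calls were nearly even without ZT0 replicate 3 (524 higher and 531 lower), ZT12 replicate 1 (469 and 530) or ZT12 replicate 3 (447 and 502). Also, limma-voom on read numbers recovered from the deposited values called 792 genes higher and 850 lower, so that 48.2% of its calls were higher against 38.2% in the main fit.

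The libraries held 34.0 to 49.1 M recovered reads at ZT12 and 29.5 to 39.3 M at ZT0 (two-sided exact permutation test, p = 0.286), and 19.2 to 23.1% and 18.4 to 22.6% of these came from mitochondrially encoded genes (p = 0.743). The 8 ventricular cardiomyocyte markers were present in all 8 libraries, and 0 of them were called. Myl2 lay between 6555 and 7798 TPM, Ryr2 between 55.9 and 95.8 TPM and Ttn between 18.2 and 47.3 TPM. Of 16 such measures, 1 had an unadjusted exact p below 0.05: the summed level of the mesothelial markers Msln, Upk3b and Wt1, which was 11.6 to 39.8 TPM at ZT0 and 51.0 to 130.1 TPM at ZT12 (p = 0.0286, the smallest that 70 splits can give, and 0.457 after adjustment over the 16). The summed atrial markers ranged from 2270 to 5436 TPM at ZT0 and 957 to 4657 TPM at ZT12 (exact permutation p = 0.371). The summed erythroid markers ranged from 3664 to 22050 TPM at ZT0 and 4890 to 31403 TPM at ZT12 (exact permutation p = 0.629). With 4 libraries per group, such a p does not show equal content. The part of these sums in the gene differences was not tested. All 8 libraries correlated best with their own group, DRF ZT0 replicate 1 only by a near tie (0.371 with its own group and 0.371 with the nearest other one).

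**Figure D1:**
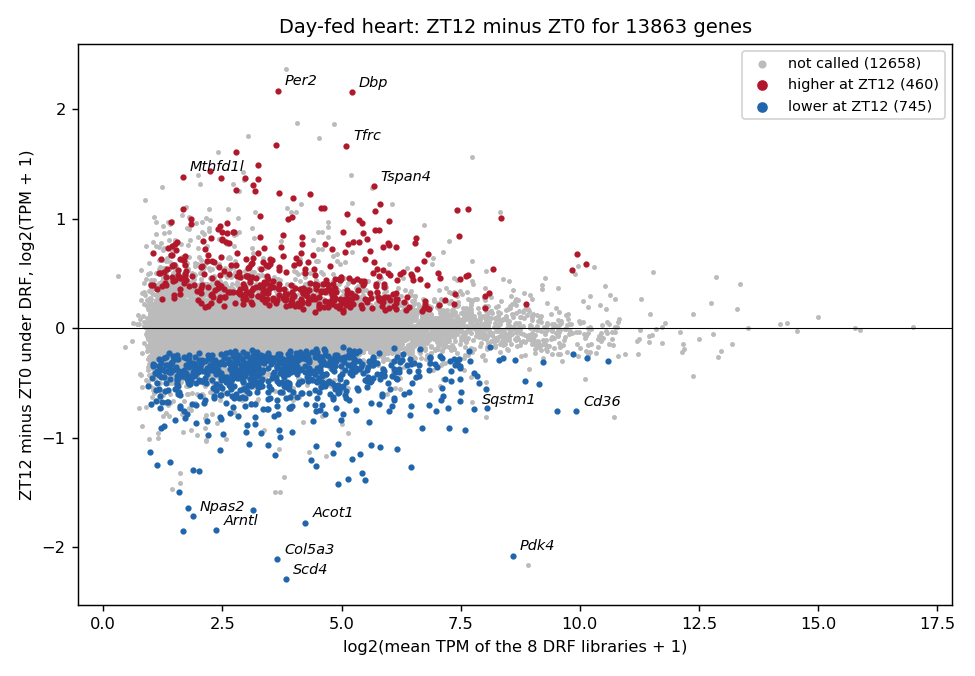
Difference between ZT12 and ZT0 under DRF for each of the 13863 tested genes (vertical axis, log2(TPM + 1) scale) against its level (horizontal axis, log2 of the mean TPM of the 8 libraries plus 1). Red points are the 460 genes called higher at ZT12, blue points the 745 called lower and grey points the 12658 not called; the largest called differences lie near 2 in both directions.

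Among the 24 genes with the largest non-overlapping differences were clock genes, fasting-induced lipid genes, matrix and immune genes. Lack of overlap was a condition for entering these 24, so it adds no support to any of them. For 4 of them the promoter is shown, because it holds the binding motif of a clock, forkhead or glucocorticoid factor; these are the genes with the largest differences among the largest 24 and the clock list whose window held any searched motif. Each window runs from 250 bases before to 50 bases after the RefSeq start site (build GRCm38.p6), is written 5′ to 3′ on the strand of the gene, and carries its motif matches in capitals. The Fam124b window (chr1:80213895-80214194, minus strand) holds the REV-ERB and ROR element TAGGTCA with its first base at -19 from the start site and the FOXO element GTAAACA at -215. The Arntl window (chr7:113207261-113207560, plus strand) holds TAGGTCA at 30. The Acot1 window (chr12:84009252-84009551, plus strand) holds the glucocorticoid response element ACANNNTGT at -200, and the Per3 window (chr4:151044616-151044915, minus strand) holds the D-box TTATGNAA, the site of DBP, TEF, HLF and NFIL3, at -205 and at -158.
Fam124b: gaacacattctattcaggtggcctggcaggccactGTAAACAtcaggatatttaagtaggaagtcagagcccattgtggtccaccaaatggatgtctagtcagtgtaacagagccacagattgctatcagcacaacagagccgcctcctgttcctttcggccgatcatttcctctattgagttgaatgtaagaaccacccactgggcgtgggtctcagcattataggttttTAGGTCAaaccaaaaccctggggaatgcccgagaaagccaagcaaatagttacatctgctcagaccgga
Arntl: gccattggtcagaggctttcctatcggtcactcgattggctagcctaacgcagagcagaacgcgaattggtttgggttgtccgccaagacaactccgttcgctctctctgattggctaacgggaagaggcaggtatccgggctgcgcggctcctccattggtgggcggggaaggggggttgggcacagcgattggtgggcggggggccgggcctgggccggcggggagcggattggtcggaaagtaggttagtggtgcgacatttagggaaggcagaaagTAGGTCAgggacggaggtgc
Acot1: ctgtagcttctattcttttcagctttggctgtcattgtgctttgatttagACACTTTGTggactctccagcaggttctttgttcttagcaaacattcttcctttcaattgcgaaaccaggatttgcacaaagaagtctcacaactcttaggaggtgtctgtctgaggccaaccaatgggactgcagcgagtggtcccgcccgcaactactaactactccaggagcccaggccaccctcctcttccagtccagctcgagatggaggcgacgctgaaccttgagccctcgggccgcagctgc
Per3: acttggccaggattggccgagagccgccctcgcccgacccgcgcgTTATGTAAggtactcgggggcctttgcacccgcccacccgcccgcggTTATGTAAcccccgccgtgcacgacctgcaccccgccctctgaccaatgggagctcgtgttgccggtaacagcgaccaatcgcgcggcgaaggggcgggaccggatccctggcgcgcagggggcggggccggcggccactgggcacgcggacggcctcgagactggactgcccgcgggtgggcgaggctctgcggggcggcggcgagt

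Matches of this kind are common enough to be read as description only. Of the tested genes, 9907 had a window, among them 318 called higher and 540 called lower. The E-box CACGTG, bound by CLOCK and BMAL1, was present in 14.8% of the higher, 11.7% of the lower and 11.6% of all tested genes with a window, and the D-box in 4.40%, 1.85% and 2.56%. The REV-ERB and ROR element was found in 2.20% of the higher, 3.33% of the lower and 2.31% of all, and the FOXO element in 4.09%, 5.56% and 3.22%. The glucocorticoid response element was in 3.14%, 6.48% and 5.05%, and the cAMP response element TGACGTCA in 2.83%, 3.70% and 3.38%. All motifs were searched on both strands. A heat shock element was found in 1.26%, 0.556% and 0.585%. A PPAR element, which shares the letters AGGTCA with the REV-ERB and ROR element, was found in 0 of 318, 0 of 540 and 0.0505% of all. Among the clock genes with a window, Tef, Cry1, Bhlhe41, Per1 and Ciart held an E-box. Ciart held it at -116, -58 and -44.

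Clock genes made up 5 of those 24 genes. Of 18 clock genes, all tested, 9 were higher and 3 lower at ZT12, with a median of 0.66, where over all genes 3.32% were higher and 5.37% lower, with a median of -0.014. Per2, a repressor of the loop, had 3.43, 4.61, 3.42 and 2.77 TPM at ZT0 and 19, 19, 14.3 and 26.6 TPM at ZT12, so that every ZT12 library lay above every ZT0 library, and the means differed 5.55-fold (2.17 ± 0.24, adjusted p = 1.64e-08 by limma). Dbp, a PAR-bZIP output factor, had 9.25, 18.8, 10.7 and 13 TPM at ZT0 and 58.3, 60.7, 54.2 and 63.6 TPM at ZT12 (4.58-fold; 2.15 ± 0.42, adjusted p = 0.000619). Its reads cannot be told apart from those of the overlapping gene Sphk2 on the other strand. Per3, a further period gene, had 3.45, 4.03, 3.47 and 2.56 TPM at ZT0 and 12.2, 11.6, 7.52 and 10.4 TPM at ZT12 (3.09-fold; 1.38 ± 0.18, adjusted p = 8.41e-07). All of these groups were fully separated, as the choice of these genes required.

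On the other side of the loop stood the activators. Arntl, which encodes BMAL1, had 6.45, 7.36, 7.86 and 6.74 TPM at ZT0 and 1.32, 1.01, 1.65 and 1.09 TPM at ZT12, a level 5.61-fold lower at ZT12 (-1.84 ± 0.23, adjusted p = 3.55e-07). Npas2, the CLOCK paralogue that pairs with BMAL1, had 4.31, 4.36, 5.10 and 4.73 TPM at ZT0 and 0.762, 0.748, 0.682 and 0.633 TPM at ZT12 (6.55-fold lower; -1.72 ± 0.18, adjusted p = 3.66e-09). In both genes the ZT12 libraries lay far below the lowest ZT0 library. Clock itself changed less, with 9.52 ± 0.570 TPM at ZT0 and 7.18 ± 0.481 TPM at ZT12 (mean ± SD, n = 4; -0.36 ± 0.09, adjusted p = 0.00764).

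The remaining called clock genes were all higher at ZT12. The PAR-bZIP factors Hlf and Tef differed by 1.19 ± 0.15 and 1.14 ± 0.16 (adjusted p = 3.34e-07 and 2.98e-06). Of the REV-ERB receptors, repressors of Arntl, Nr1d1 had 21.7 ± 2.97 TPM at ZT0 and 45.4 ± 2.25 TPM at ZT12 (1.04 ± 0.27, adjusted p = 0.0112) and overlaps Thra on the other strand. Nr1d2 had 28.2 ± 3.46 TPM at ZT0 and 55.6 ± 4.97 TPM at ZT12 (0.96 ± 0.19, adjusted p = 0.000592). Cry1, a repressor, differed by 0.74 ± 0.16, adjusted p = 0.00147, and Bhlhe41, an E-box repressor, by 0.57 ± 0.14, adjusted p = 0.00710. Not every clock gene separated these times. Per1 had 17.3, 33.4, 22.5 and 21.3 TPM at ZT0 and 15.4, 18, 20.3 and 24 TPM at ZT12, overlapping ranges with a difference of -0.25 ± 0.36, adjusted p = 0.752. Nfil3, the repressor that shares the D-box with DBP, differed by -0.08 ± 0.25, adjusted p = 0.894, and Cry2, Rora, Bhlhe40 and Ciart also stayed above the threshold, with differences from 0.08 (Rora) to 0.81 (Ciart, adjusted p = 0.159).

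Under NRF the same clock times gave 13 higher and 4 lower calls among the 18 genes, with a median of 1.57 (7.26% and 9.71% of all genes were higher and lower there). In 14 of the 18 the difference itself differed between regimens (14.5% of all tested genes did, 6.70% higher and 7.85% lower under DRF). Dbp differed by 4.87 ± 0.42 under NRF, -2.72 when NRF was subtracted from DRF (adjusted p = 0.00121). Arntl differed by -3.39 ± 0.23 under NRF (DRF minus NRF 1.55 ± 0.33, adjusted p = 0.000729). Per1 rose under NRF by 2.28 ± 0.36 (DRF minus NRF -2.53, adjusted p = 0.000481), and Nfil3 fell there, with a difference of -2.27 ± 0.25 (DRF minus NRF 2.19, adjusted p = 1.62e-05). Nr1d2 and Ciart had regimen differences of -1.96 and -2.14. Cry1 was the clock gene called under DRF whose NRF estimate had the other sign, -0.32 ± 0.16 (adjusted p = 0.166; DRF minus NRF 1.06, adjusted p = 0.000708). A regimen difference was not called for Per2 (-0.61 ± 0.34, adjusted p = 0.236). Npas2 likewise had 0.17 ± 0.25 (adjusted p = 0.698).

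**Figure D2:**
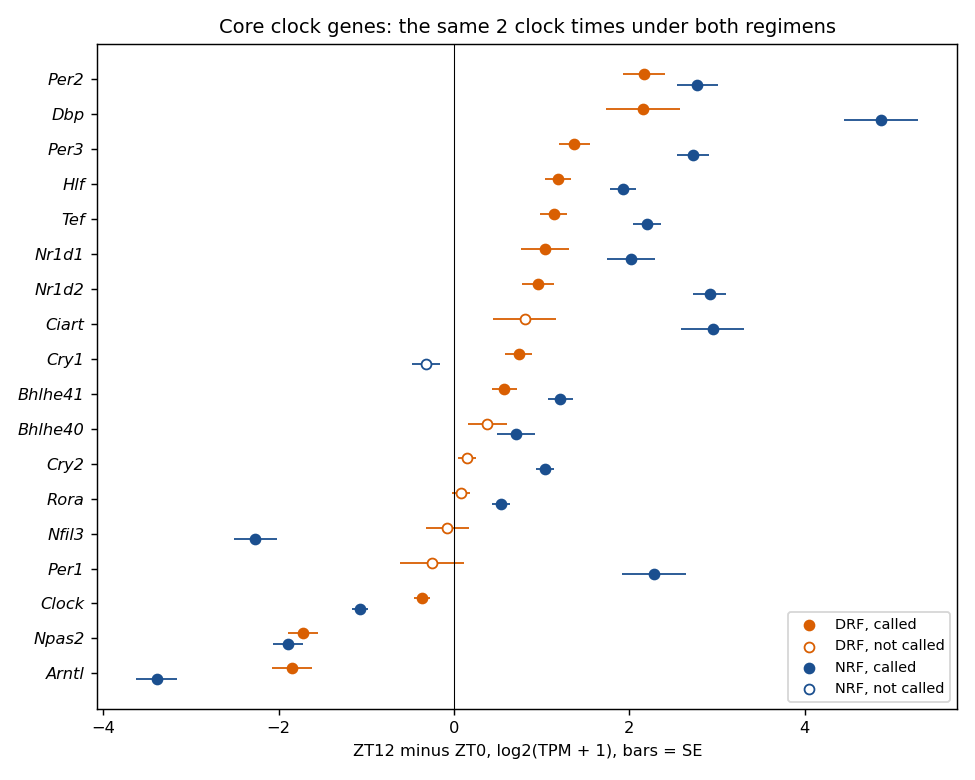
Differences between ZT12 and ZT0 of the 18 clock genes under DRF and under NRF (log2(TPM + 1) scale, bars are the limma standard error, filled symbols are called at adjusted p below 0.05). Under DRF, Per2 and Dbp lie above 2 and Arntl and Npas2 below -1.7, and Per1 and Nfil3 lie near 0 under DRF and beyond 2 under NRF.

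Called genes of lipid use and fatty acid oxidation were lower at the end of the feeding window. Of 25 genes of fasting-induced lipid use, 12 were lower and 0 higher at ZT12 (median -0.46), and of 27 tested genes of mitochondrial and peroxisomal fatty acid oxidation 7 were lower and 0 higher (median -0.17), against 5.37% of all genes lower and 3.32% higher. Pdk4, the kinase that shuts off pyruvate dehydrogenase in fasting, had 903, 389, 419.6 and 804 TPM at ZT0 and 123, 169.8, 158 and 111 TPM at ZT12, a 4.48-fold lower mean (-2.08 ± 0.46, adjusted p = 0.00236). The ZT0 libraries fell into a pair above 800 TPM and a pair near 400 TPM, and all lay above the ZT12 libraries. Acot1, a cytosolic acyl-CoA thioesterase, had 32.4, 27.0, 18.5 and 35.1 TPM at ZT0 and 5.84, 9.02, 8.25 and 6.51 TPM at ZT12 (3.81-fold lower; -1.78 ± 0.27, adjusted p = 1.3e-05). Its close paralogue Acot2, a mitochondrial thioesterase, differed by -1.11 ± 0.19, adjusted p = 0.000130, and reads may be divided between these near-identical genes.

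Slc27a1, the fatty acid transporter FATP1, had 80.5, 82.1, 65.0 and 73.8 TPM at ZT0 and 38.2, 35.4, 32.1 and 34.2 TPM at ZT12 (-1.08 ± 0.14, adjusted p = 6.73e-07). Cd36, the main fatty acid translocase of the heart, had 1241, 1171, 1162 and 1314 TPM at ZT0 and 666, 705, 765 and 753 TPM at ZT12 (-0.76 ± 0.09, adjusted p = 3.55e-07). In each case every ZT12 library lay below every ZT0 library. Ucp3, a mitochondrial carrier induced by fatty acids, had 90.1, 44.1, 52.4 and 72.3 TPM at ZT0 and 21.3, 27.8, 28.5 and 17 TPM at ZT12 (-1.39 ± 0.43, adjusted p = 0.0337). The call of Ucp3 ended without ZT12 replicates 1 or 4 or ZT0 replicates 1 or 4 (adjusted p up to 0.119). The lipases and droplet proteins Pnpla2, Lipe and Plin5 differed by -0.55 ± 0.12, -0.75 ± 0.16 and -0.76 ± 0.14 (adjusted p = 0.00133, 0.00179 and 0.000293). Mlycd, which removes the malonyl-CoA that inhibits fatty acid entry into mitochondria, differed by -0.80 ± 0.11, adjusted p = 5.80e-06, and Vldlr and Plin4 were called lower as well (-0.50 ± 0.12, adjusted p = 0.00624 and -0.46 ± 0.15, adjusted p = 0.0375). Plin4 lost its call without ZT12 replicates 1, 2 or 3 or ZT0 replicates 1 or 2 (adjusted p up to 0.141).

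In the oxidation pathway Cpt1a and Ehhadh had the largest differences among the called members. Cpt1a, an outer-membrane carnitine palmitoyltransferase, had 48.9 ± 6.87 TPM at ZT0 and 28.5 ± 1.26 TPM at ZT12 (-0.75 ± 0.17, adjusted p = 0.00387), and Ehhadh, the peroxisomal bifunctional enzyme, had 14.4 ± 4.28 TPM at ZT0 and 7.62 ± 1.14 TPM at ZT12 (-0.80 ± 0.18, adjusted p = 0.00315). Hadha, a subunit of the mitochondrial trifunctional protein, differed by -0.27 ± 0.07, adjusted p = 0.0103. The other called members differed by -0.28 to -0.36: the acyl-CoA synthetase Acsl1, the carnitine carrier Slc25a20, the electron carrier Etfdh and the peroxisome factor Pex11a. Each of these 4 lost its call when some single library was left out, and the 7 calls of the list became 4 without ZT0 replicate 1 and 4 without ZT0 replicate 2. Acsl1 was no longer called without ZT0 replicate 1 (adjusted p = 0.0556). The call of Slc25a20 ended without ZT12 replicates 1, 2 or 3 or ZT0 replicates 1, 2, 3 or 4 (adjusted p up to 0.121). Etfdh lost its call without ZT12 replicates 1 or 2 or ZT0 replicates 1, 2 or 4 (adjusted p up to 0.112). The call of Pex11a ended without ZT0 replicate 2 (adjusted p = 0.0507).

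Under NRF, 3 of 25 and 1 of 27 members were called higher at ZT12 and 0 of either list lower, against 7.26% and 9.71% of all genes. The medians there were -0.0039 for fasting-induced lipid use and 0.09 for oxidation, and the regimen difference was called in 11 of 25 and 13 of 27 members (14.5% over all genes). Slc27a1 rose under NRF by 0.85 ± 0.14 (DRF minus NRF -1.93 ± 0.20, adjusted p = 4.45e-09). Cpt1a differed under NRF by 0.48 ± 0.17 (adjusted p = 0.0509; DRF minus NRF -1.22, adjusted p = 0.000432). For Pdk4 a regimen difference was not called (-1.38 ± 0.65, adjusted p = 0.151).

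**Figure D3:**
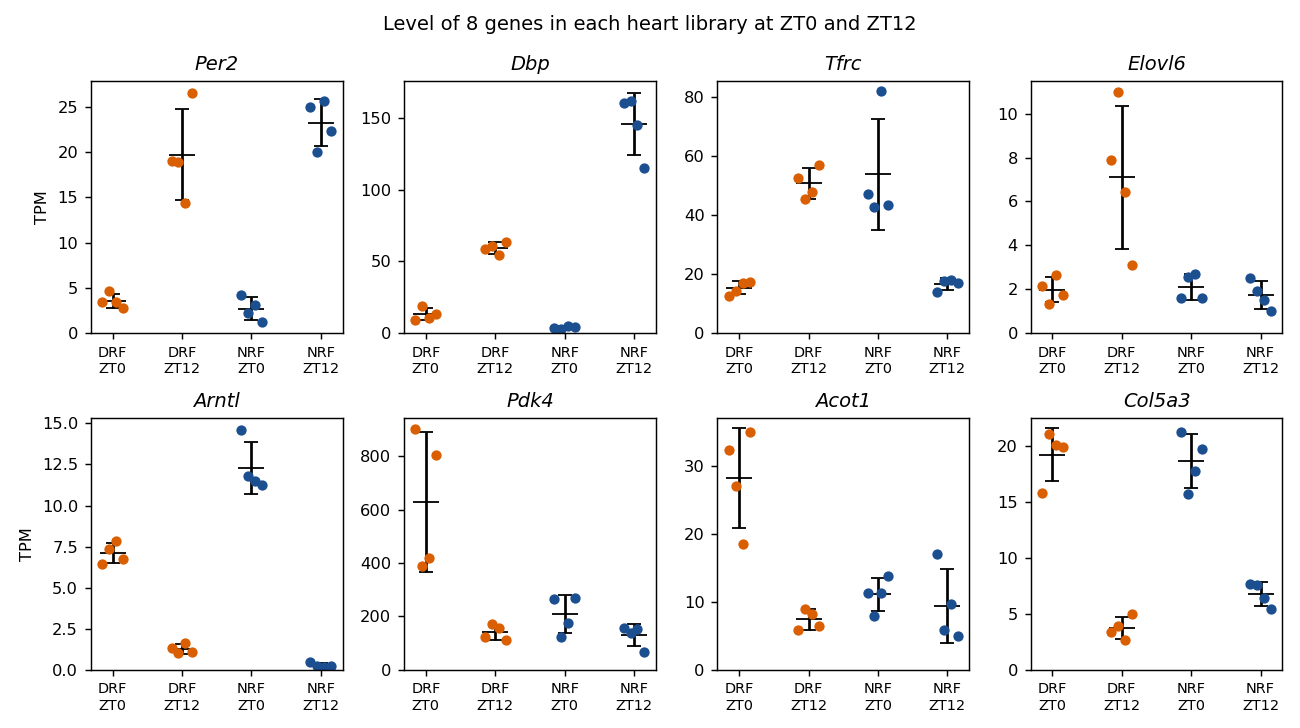
TPM of 8 genes in the single libraries of DRF ZT0, DRF ZT12, NRF ZT0 and NRF ZT12 (points are libraries, bars the mean ± SD of 4). Per2, Dbp, Tfrc and Elovl6 are higher and Arntl, Pdk4, Acot1 and Col5a3 lower at ZT12 under DRF in all 4 libraries; Tfrc moves the opposite way under NRF.

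Among 22 genes responsive to insulin and FOXO factors, 7 were lower and 0 higher at ZT12, with a median of -0.31, against 5.37% lower and 3.32% higher over all genes. The median under NRF was 0.27, and 13 of the 22 regimen differences were called (all genes, 14.5%). Ccng2, a cyclin and FOXO target, had 15.0, 14.2, 15.0 and 12.8 TPM at ZT0 and 8.01, 8.93, 8.19 and 9.69 TPM at ZT12 (-0.65 ± 0.11, adjusted p = 6.34e-05), and the 2 groups did not overlap. Trim63, the muscle ubiquitin ligase MuRF1, and Fbxo21, an F-box ligase subunit, differed by -0.62 ± 0.13, adjusted p = 0.00105 and -0.49 ± 0.11, adjusted p = 0.00381. Eif4ebp1, the translation repressor 4E-BP1, differed by -0.33 ± 0.08, adjusted p = 0.00381, and the cell cycle inhibitor Cdkn1b by -0.35 ± 0.08, adjusted p = 0.00269. Insr, the insulin receptor, and Foxo4 were called at -0.42 ± 0.11 and -0.26 ± 0.06, but not in every leave-one-out fit. Insr lost its call without ZT12 replicate 3 or ZT0 replicate 1 (adjusted p up to 0.0733). Foxo4 was no longer called without ZT0 replicate 2 (adjusted p = 0.0531). Of 23 autophagy genes 2 were called, near the 8.69% of all genes. Both were lower, namely the cargo receptor Sqstm1 (282, 293, 279 and 249 TPM at ZT0 and 158, 166, 160.3 and 174 TPM at ZT12; -0.74 ± 0.08, adjusted p = 1.26e-08) and Atg13 (-0.30 ± 0.08, adjusted p = 0.00837). Sqstm1 overlaps Mrnip on the other strand. It rose under NRF by 0.48 ± 0.08 (DRF minus NRF -1.22, adjusted p = 2.36e-10). The autophagy calls, 2 in the main fit, were 4 without ZT12 replicate 4, with median-of-ratios scaling or by voom, all lower.

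Several genes of fatty acid synthesis were higher. Of 24 genes of fatty acid and triglyceride synthesis 7 were higher and 3 lower at ZT12 (median 0.24), against 3.32% higher and 5.37% lower over all genes. The 7 higher calls were 4 when only the groups compared were fitted and 9 or 10 with median-of-ratios scaling, without mitochondrial genes or by voom. Elovl6, the elongase of saturated long-chain fatty acids, had 2.16, 1.32, 2.66 and 1.73 TPM at ZT0 and 7.87, 11, 6.42 and 3.12 TPM at ZT12 (3.61-fold higher; 1.37 ± 0.35, adjusted p = 0.00885). Acly, which makes cytosolic acetyl-CoA, had 26.4 to 35.4 TPM at ZT0 and 39.5 to 74.3 TPM at ZT12 (0.87 ± 0.18, adjusted p = 0.00140), and Acaca, which makes malonyl-CoA, had 1.87 to 3.65 TPM at ZT0 and 4.05 to 11.1 TPM at ZT12 (0.96 ± 0.25, adjusted p = 0.0109). Scd2, a stearoyl-CoA desaturase, differed by 0.77 ± 0.17, adjusted p = 0.00202, the lipogenic regulators Thrsp and Mid1ip1 by 0.98 ± 0.27 and 0.77 ± 0.16 (adjusted p = 0.0172 and 0.00138), and the acetyl-CoA synthetase Acss2 by 0.35 ± 0.08, adjusted p = 0.00523.

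Adipocyte markers varied between the same libraries. Adipoq, which encodes adiponectin, had 9.42, 3.32, 11.1 and 8.70 TPM at ZT0 and 15.9, 32.7, 17.5 and 9.47 TPM at ZT12, and Ucp1, of brown fat, had 0.0683 to 6.15 TPM at ZT0 and 0 to 78.2 TPM at ZT12. The 6 adipocyte markers summed to 57.1 to 79.6 TPM at ZT0 and 57.3 to 231.7 TPM at ZT12 (exact permutation p = 0.20), highest in ZT12 replicate 2, and 0 of the 5 tested were called. In that same library Elovl6 was highest. The 7 higher calls became 4 without ZT12 replicate 2. Without it the differences were 1.15 for Elovl6, 0.74 for Acaca and 0.76 for Thrsp. The call of Elovl6 ended without ZT12 replicate 2 (adjusted p = 0.0531). Acaca lost its call without ZT12 replicate 2 or ZT0 replicate 2 (adjusted p up to 0.0784). Thrsp was no longer called without ZT12 replicate 2 or ZT0 replicate 2 (adjusted p up to 0.101). The part of adipocytes in these differences was not tested. In a bulk heart sample, fewer cells of a type and less RNA per cell cannot be told apart.

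A further 3 genes of fatty acid and triglyceride synthesis were lower. Scd4, a desaturase expressed in heart, had 24.4, 20.3, 17.3 and 29.1 TPM at ZT0 and 2.87, 4.42, 3.96 and 3.96 TPM at ZT12 (5.99-fold lower; -2.29 ± 0.32, adjusted p = 3.58e-06), and reads may be shared among the Scd family. The direction was opposite to that of Scd2. Gpam, the first acyltransferase of triglyceride synthesis, and Acss1, a mitochondrial acetyl-CoA synthetase, were lower as well, at -0.71 ± 0.19, adjusted p = 0.0108 and -0.30 ± 0.08, adjusted p = 0.00899. The call for Gpam ended without ZT0 replicate 1 (adjusted p = 0.0528). At ZT24 Scd4 had a mean of 9.82 TPM, less than the 22.8 TPM of ZT0, and the difference from ZT12 was -1.13 (adjusted p = 0.0166). Of the cholesterol genes, 1 of 20 tested was called, against 8.69% of all genes, namely Hsd17b7 (-0.54 ± 0.13, adjusted p = 0.00602). Glucose transport, glycolysis and glycogen (30 genes), ketone body metabolism (6) and branched-chain amino acid breakdown (18) had 0 called members.

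Some chaperones were higher at ZT12. Of 26 tested endoplasmic reticulum chaperone and integrated stress response genes, 9 were higher and 0 lower (median 0.35), and of 20 heat shock and cold-inducible genes 5 were higher and 1 lower (median 0.24), against 3.32% higher and 5.37% lower over all genes. Sdf2l1, a cofactor of the chaperone BiP, had 6.82, 11.1, 11.3 and 7.46 TPM at ZT0 and 14.1, 18.7, 18.1 and 28.0 TPM at ZT12 (1.02 ± 0.25, adjusted p = 0.00736). Manf, a secreted stress factor of the endoplasmic reticulum, differed by 0.67 ± 0.22, adjusted p = 0.0424 and overlaps genes on the other strand. Asns, asparagine synthetase, differed by 0.56 ± 0.14, adjusted p = 0.00763, and the disulfide isomerase Pdia3 by 0.50 ± 0.11, adjusted p = 0.00220. Hspa5, which encodes BiP, differed by 0.48 ± 0.15, adjusted p = 0.0385. In the cytosol, Hsph1, an HSP110 chaperone, had 8.58, 15.1, 14.1 and 12.3 TPM at ZT0 and 15.5, 16.5, 15.5 and 32.9 TPM at ZT12 (0.60 ± 0.19, adjusted p = 0.0361). Stip1, the HSP70 and HSP90 adaptor, had 82.3, 97.1, 105 and 89.2 TPM at ZT0 and 103, 111, 114 and 173 TPM at ZT12 (0.39 ± 0.11, adjusted p = 0.0179). Chordc1, an HSP90 partner, differed by 0.56 ± 0.14, adjusted p = 0.00681. ZT12 replicate 4 was the highest library for Hsph1 and Stip1.

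The chaperone counts depended on the fit and on single libraries. The 9 endoplasmic reticulum calls were 15 with median-of-ratios scaling, 14 by voom, 14 without mitochondrial genes and 4 when only the groups compared were fitted, which left 1 of the 5 higher heat shock calls. The 5 higher heat shock calls became 0 without ZT12 replicate 4 and 2 without ZT0 replicate 1 or ZT0 replicate 4. The 9 endoplasmic reticulum calls became 5 without ZT12 replicate 2, 2 without ZT12 replicate 4, 3 without ZT0 replicate 1 and 4 without ZT0 replicate 4. The call of Hsph1 ended without ZT12 replicate 4 or ZT0 replicates 1 or 4 (adjusted p up to 0.273). Stip1 lost its call without ZT12 replicate 4 or ZT0 replicate 1 (adjusted p up to 0.183). Chordc1 was no longer called without ZT12 replicate 4 (adjusted p = 0.0617). The call of Sdf2l1 ended without ZT12 replicate 4 (adjusted p = 0.0509). Manf lost its call without ZT12 replicates 2, 3 or 4 or ZT0 replicates 1, 2, 3 or 4 (adjusted p up to 0.163). Hspa5 was no longer called without ZT12 replicates 2, 3 or 4 or ZT0 replicates 1, 3 or 4 (adjusted p up to 0.176). Asns and Pdia3 kept their calls in all 8 omissions, but Asns was not called when only the groups compared were fitted. Cirbp, a cold-inducible RNA-binding protein, was the heat shock and cold list's lower member and had 80.2, 65.2, 62.3 and 54.9 TPM at ZT0 and 35.4, 31.0, 31.1 and 25.5 TPM at ZT12 (-1.06 ± 0.18, adjusted p = 1.0e-04), a call kept in all 8. Under NRF, 16 of 26 and 8 of 20 members were called lower (9.71% over all genes), and the regimen difference was called in 19 of 26 and 12 of 20 (14.5% over all genes). It was 2.41 ± 0.36 for Sdf2l1 (adjusted p = 6.17e-06), 1.58 ± 0.26 for Hsph1 (adjusted p = 4.01e-05) and -1.82 ± 0.26 for Cirbp (adjusted p = 2.55e-06).

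Iron handling held the gene with the largest regimen difference among those named. Tfrc, the transferrin receptor through which cells take up iron, had 12.7, 14.4, 17.1 and 17.2 TPM at ZT0 and 52.5, 45.4, 47.9 and 57.1 TPM at ZT12, 3.30-fold higher at ZT12 (1.67 ± 0.26, adjusted p = 2.08e-05). Under NRF the direction was reversed, from 47.3, 42.9, 82.0 and 43.3 TPM at ZT0 to 13.8, 17.7, 18 and 17.1 TPM at ZT12 (-1.59 ± 0.26, adjusted p = 1.27e-05), and the difference between regimens was 3.26 ± 0.37 (adjusted p = 3.73e-08). In both regimens the fed time had the higher level. Slc40a1, the iron exporter ferroportin, had 11.5, 11, 9.60 and 10.6 TPM at ZT0 and 4.71, 5.51, 5.22 and 6.02 TPM at ZT12 (-0.88 ± 0.11, adjusted p = 6.73e-07), and Mt1, metallothionein, differed by -0.73 ± 0.15, adjusted p = 0.000956. Slc11a2 and Slc39a14, importers of iron and other divalent metals, were higher by 0.33 ± 0.09 and 0.40 ± 0.10. Both of these calls ended without ZT12 replicate 4 (adjusted p = 0.0623 and 0.0504), which took the 3 higher calls among 13 metal genes to 1 (3.32% of all genes were higher).

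Of 25 matrix genes 6 were lower at ZT12 than at ZT0 and 0 higher, against 5.37% and 3.32% over all genes, and their median was -0.09. Fitting only the groups compared left 3 calls. With ZT0 and ZT24 as a joint reference, 6 were lower and 4 higher (median 0.05), and without ZT12 replicate 3 the median was 0.0086. Col5a3, a fibrillar collagen chain, had 15.8, 21.1, 20.1 and 19.9 TPM at ZT0 and 3.34, 3.91, 2.67 and 5.02 TPM at ZT12 (5.15-fold lower; -2.11 ± 0.17, adjusted p = 2.83e-12), the smallest adjusted p for DRF ZT12 against ZT0 among the genes named here. Fbn1, which encodes fibrillin-1 of elastic fibres, had 23.5 to 31.3 TPM at ZT0 and 7.32 to 14 TPM at ZT12 (-1.20 ± 0.18, adjusted p = 1.3e-05). Eln, elastin, had 33.8 to 46.5 TPM at ZT0 and 12.4 to 20.3 TPM at ZT12 (-1.14 ± 0.19, adjusted p = 9.22e-05). Both overlap a gene on the other strand. All 3 were also lower at ZT12 under NRF, by -1.34 ± 0.17, -0.63 ± 0.18 and -1.08 ± 0.19. Col4a1, Col4a2 and Lox, the basement membrane collagens and lysyl oxidase, differed by -0.66 ± 0.21, -0.66 ± 0.19 and -0.53 ± 0.14. The call of Col4a1 ended without ZT12 replicates 1 or 3 or ZT0 replicates 2, 3 or 4 (adjusted p up to 0.195). Col4a2 lost its call without ZT12 replicates 1 or 3 or ZT0 replicate 3 (adjusted p up to 0.127). Lox was no longer called without ZT12 replicates 1 or 3 or ZT0 replicate 3 (adjusted p up to 0.0661). The 6 calls became 3 without ZT12 replicate 1, ZT12 replicate 3 or ZT0 replicate 3. Col1a1, Col1a2 and Col3a1, the abundant fibrillar collagens, were not called.

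Some endothelial genes were lower as well. Cldn5, the endothelial tight junction protein, had 111, 116, 152 and 111 TPM at ZT0 and 40.7, 67.5, 34.7 and 63.0 TPM at ZT12 (-1.27 ± 0.19, adjusted p = 8.22e-06), and Kdr and Tie1, endothelial receptors, differed by -0.40 ± 0.12 and -0.39 ± 0.11. The call of Kdr ended without ZT12 replicates 1 or 3 or ZT0 replicates 2 or 3 (adjusted p up to 0.0841). Tie1 lost its call without ZT12 replicates 1 or 3 or ZT0 replicate 3 (adjusted p up to 0.0883). Of 6 endothelial markers 3 were called, all lower, against 5.37% of all genes, and these became 1 without ZT12 replicate 1, ZT12 replicate 3 or ZT0 replicate 3. Their summed level was 627 to 846 TPM at ZT0 and 459 to 632 TPM at ZT12 (exact permutation p = 0.0571), and its part in the endothelial and matrix differences was not tested. Fam124b, a gene of little known function, had 3.92, 4.23, 4.32 and 3.58 TPM at ZT0 and 0.515, 0.469, 0.234 and 0.358 TPM at ZT12 (10.2-fold lower; -1.85 ± 0.21, adjusted p = 2.36e-08). Spon2, a secreted matrix protein, had 11.4, 13.8, 10.9 and 13.4 TPM at ZT0 and 1.93, 5.55, 3.43 and 2.66 TPM at ZT12 (-1.66 ± 0.37, adjusted p = 0.00277). Cdkn1a, the cell cycle inhibitor p21, had 31.9, 47.2, 48.8 and 44.8 TPM at ZT0 and 10.9, 16.2, 16.8 and 18.3 TPM at ZT12 (-1.42 ± 0.20, adjusted p = 3.36e-06). The groups of each of these genes did not overlap, as their choice required. Under NRF, Fam124b, Spon2 and Cdkn1a were also lower at ZT12, by -1.77 ± 0.21, -3.45 ± 0.37 and -1.06 ± 0.20. Of 15 tested hemostasis and vascular genes 1 was lower and 1 higher, against 5.37% and 3.32% of all genes. Plat, tissue plasminogen activator, was lower at -0.40 ± 0.12, adjusted p = 0.0303 and the adhesion molecule Vcam1 higher at 0.51 ± 0.17, adjusted p = 0.0456. Plat was no longer called without ZT12 replicates 1 or 3 or ZT0 replicates 2 or 3 (adjusted p up to 0.114). The call of Vcam1 ended without ZT12 replicates 2, 3 or 4 or ZT0 replicates 1, 2 or 4 (adjusted p up to 0.174).

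Ccl12 and Ccl7, which encode monocyte chemokines, were higher at ZT12. Ccl12 had 3.66, 4.10, 5.94 and 2.50 TPM at ZT0 and 14.4, 13.3, 9.82 and 14.1 TPM at ZT12 (3.19-fold; 1.49 ± 0.28, adjusted p = 0.000418). Ccl7 had 2.55, 5.42, 5.39 and 3.14 TPM at ZT0 and 11.8, 14.2, 7.40 and 12.8 TPM at ZT12 (2.80-fold; 1.31 ± 0.26, adjusted p = 0.000586). The groups did not overlap, as the choice of these genes required, and reads may be divided between these related genes. Of 6 macrophage markers 1 was called higher (3.32% of all genes were), the Fc receptor Fcgr1 (0.62 ± 0.15, adjusted p = 0.00582), and their summed level was 229.7 to 328 TPM at ZT0 and 284 to 395 TPM at ZT12 (exact permutation p = 0.114). Its part in the chemokine difference was not tested. Mthfd1l, a mitochondrial folate enzyme, had 0.631, 0.883, 0.929 and 0.605 TPM at ZT0 and 3.13, 3.89, 3.57 and 3.75 TPM at ZT12 (4.71-fold; 1.38 ± 0.14, adjusted p = 5.48e-09). Cys1, which encodes the ciliary protein cystin, had 4.10, 4.27, 5.45 and 3.41 TPM at ZT0 and 11.4, 13.9, 10.7 and 14.2 TPM at ZT12 (2.92-fold; 1.36 ± 0.14, adjusted p = 3.66e-09). Tspan4, a tetraspanin, had 26.1, 28.9, 33.9 and 25.4 TPM at ZT0 and 61.0, 78.2, 72.9 and 73.6 TPM at ZT12 (2.50-fold; 1.3 ± 0.17, adjusted p = 1.34e-06), though Tspan4 overlaps Chid1 on the other strand. These 3 genes rose under NRF as well, by 1.57 ± 0.14, 1.10 ± 0.14 and 1.78 ± 0.17.

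Some of the largest differences were in noncoding or short features, most of which were not called against ZT24. Gm17828, a processed pseudogene inside Zfp280d, had 4.07, 1.61, 1.58 and 2.66 TPM at ZT0 and 6.57, 9.65, 10.7 and 10.4 TPM at ZT12 (1.61 ± 0.23, adjusted p = 3.58e-06), but against ZT24 the difference was 0.22 (adjusted p = 0.576). Ndufs6b, another processed pseudogene, differed by -1.32 ± 0.22, adjusted p = 7.87e-05 against ZT0 and by 0.13 (adjusted p = 0.752) against ZT24. Gm22107, a small nuclear RNA, and Ighj2, an immunoglobulin joining segment, are each 100 bases long in the annotation used. The former had 3.02, 3.67, 5.32 and 3.91 TPM at ZT0 and 0.641, 2.72, 0 and 0 TPM at ZT12. The latter had 4.54, 3.06, 1.99 and 3.91 TPM at ZT0 and 1.28, 0, 0 and 1.26 TPM at ZT12. Their calls at -1.65 ± 0.52, adjusted p = 0.0364 and -1.50 ± 0.46, adjusted p = 0.0329 rested on a mean of 6.25 and 5.25 reads at ZT0, and the differences from ZT24 were 0.08 and -0.13. Gm22107 lost its call without ZT12 replicates 1, 3 or 4 or ZT0 replicates 1, 2, 3 or 4 (adjusted p up to 0.123). Ighj2 was no longer called without ZT12 replicates 2 or 3 or ZT0 replicates 1, 2 or 4 (adjusted p up to 0.110). Gm45819, an unclassified transcript that overlaps 1600010M07Rik on the other strand, was higher against both (1.67 ± 0.26 against ZT0 and 1.79 against ZT24).

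Of the glucocorticoid-responsive, immediate early and NAD lists, 2 of 15, 4 of 20 and 3 of 14 tested members were called, against 8.69% of all genes. Among 15 glucocorticoid-responsive genes 2 were lower, Cdkn1a and Errfi1, a feedback inhibitor of EGF receptor signalling (-0.85 ± 0.17, adjusted p = 0.000740), whereas under NRF 8 were higher and 1 lower (7.26% and 9.71% of all genes) and the regimen difference was called in 9 (14.5% over all genes). Of 20 tested immediate early genes Ier3 was higher (0.78 ± 0.17, adjusted p = 0.00147) and Zfp36, which promotes decay of cytokine mRNAs, was lower (-0.70 ± 0.16, adjusted p = 0.00315). Klf4 and Btg2 were called lower too (-0.60 ± 0.16, adjusted p = 0.0117 and -0.57 ± 0.17, adjusted p = 0.0255). The call of Klf4 ended without ZT12 replicates 1 or 3 or ZT0 replicates 2 or 3 (adjusted p up to 0.0748). Btg2 lost its call without ZT12 replicate 1 or ZT0 replicates 2, 3 or 4 (adjusted p up to 0.122). This left 1 of the 3 lower calls without ZT12 replicate 1, ZT0 replicate 2 or ZT0 replicate 3. In NAD metabolism, Nmrk2, a nicotinamide riboside kinase of muscle, was lower (-0.71 ± 0.18, adjusted p = 0.00847), as was the mitochondrial NAD kinase Nadk2 (-0.34 ± 0.07, adjusted p = 0.00176). The cytosolic Nadk was higher (0.28 ± 0.08, adjusted p = 0.0198). Nadk was no longer called without ZT12 replicates 2 or 4 or ZT0 replicates 1 or 4 (adjusted p up to 0.0812).

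Among contractile and electrical genes, 3 of 22 and 3 of 28 tested members were called, against 8.69% of all genes. Of 22 sarcomere genes 3 were lower, namely Ankrd1, a stress-responsive titin partner (-0.76 ± 0.18, adjusted p = 0.00445), Mylk3, the cardiac myosin light chain kinase (-0.29 ± 0.07, adjusted p = 0.00432), and Myom2, an M-band protein (-0.50 ± 0.14, adjusted p = 0.0175). The call of Myom2 ended without ZT0 replicates 1 or 2 (adjusted p up to 0.0871). Of 28 tested ion channel and calcium handling genes, Kcnj11, the pore of the cardiac KATP channel, was lower (-0.32 ± 0.08, adjusted p = 0.00550). Kcna5 and Kcnj12, other potassium channels, differed by -0.66 ± 0.19 and 0.35 ± 0.11. Kcna5 lost its call without ZT12 replicates 1 or 2 or ZT0 replicates 2 or 3 (adjusted p up to 0.0769). Kcnj12 was no longer called without ZT12 replicates 3 or 4 or ZT0 replicates 1 or 3 (adjusted p up to 0.162). Of the 3 channel calls 1 was left without ZT0 replicate 3.

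Cytosolic ribosomal proteins (81 tested), ribosome biogenesis factors (26) and mitochondrially encoded proteins (13) had 0 called members. The nuclear-encoded respiratory chain had 2 of 80, Ndufb2 (0.40) and Cox7c (-0.30), against 8.69% of all genes called. The call of Ndufb2 ended without ZT12 replicates 2, 3 or 4 or ZT0 replicates 1 or 2 (adjusted p up to 0.141). Cox7c lost its call without ZT12 replicates 1, 2 or 4 or ZT0 replicates 1, 2, 3 or 4 (adjusted p up to 0.136). In the proteasome 3 of 38 were called, near the share over all genes, namely Psmd14 (0.24), Psmd7 (-0.19) and Psmd4 (-0.18), and 1 was left without ZT12 replicate 1, ZT12 replicate 2 or ZT0 replicate 3. Psmd7 was no longer called without ZT12 replicates 1, 2 or 3 or ZT0 replicates 2 or 3 (adjusted p up to 0.141). The call of Psmd4 ended without ZT12 replicates 1 or 2 or ZT0 replicate 3 (adjusted p up to 0.115). Of 6 fibroblast markers Pdgfra was called (-0.25), and 0 members were called in the atrial (5 tested), smooth muscle (5), lymphocyte (1), neutrophil (3), erythroid (5), adipocyte (5), skeletal muscle (1), lung (2) and mesothelial (3) marker lists. Pdgfra lost its call without ZT12 replicates 1, 3 or 4 or ZT0 replicates 1, 2 or 3 (adjusted p up to 0.0952).

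**Figure D4:**
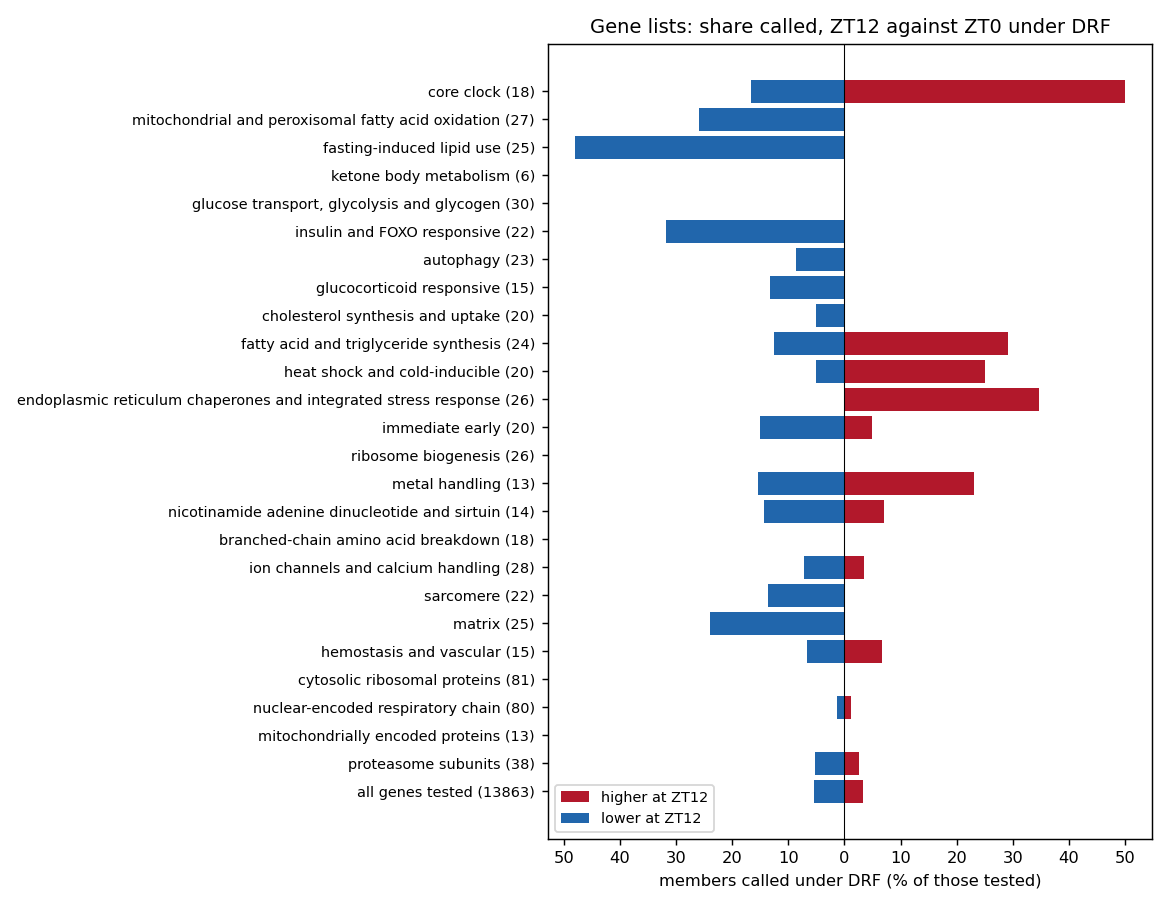
Share of the tested members of each gene list called higher (red, right) or lower (blue, left) at ZT12 under DRF, with the number tested in parentheses and all genes in the last bar. The clock list has 9 of 18 members higher and 3 lower, fasting-induced lipid use 12 of 25 lower, and all genes 3.32% higher and 5.37% lower.

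ZT24 is the same clock time as ZT0 in the next cycle and shares the ZT12 libraries with the comparison above, so its values can be set beside it but are not independent of it. Against ZT24, 1516 genes (10.9%) were called, 668 higher (4.82%) and 848 lower (6.12%) at ZT12. The higher calls outnumbered the lower ones by limma-voom (1292 and 1018) and without ZT12 replicate 1 (809 and 715), ZT12 replicate 3 (647 and 555) or ZT24 replicate 4 (803 and 619). Per2 differed by 2.46 against ZT24 and 2.17 against ZT0, Dbp by 3.05 and 2.15, Arntl by -2.14 and -1.84, Pdk4 by -2.41 and -2.08, Tfrc by 1.67 and 1.67, and Col5a3 by -1.95 and -2.11. Some chaperone genes were not called there. Sdf2l1 differed by 0.34 (adjusted p = 0.405), Manf by 0.43 (adjusted p = 0.194) and Stip1 by 0.23 (adjusted p = 0.177). Zfp36, Kcna5 and Ankrd1 were close to 0, at -0.04, -0.09 and -0.10. The list medians against ZT24 were 0.76 for the clock, -0.37 for fasting-induced lipid use, -0.16 for fatty acid oxidation, -0.20 for insulin and FOXO responsive genes, 0.20 for endoplasmic reticulum chaperones and 0.11 for matrix genes.

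NRF mice were sampled at the same clock times with the meal reversed, in libraries that are separate from those of DRF. Under NRF, 2353 genes (17.0%) were called between ZT0 and ZT12, 1007 higher (7.26%) and 1346 lower (9.71%) at ZT12. The balance turned to 1479 higher and 1110 lower when mitochondrially encoded genes were left out of the scaling, to 1065 and 916 without NRF ZT12 replicate 4 and to 916 and 901 without NRF ZT0 replicate 1. Of the 1205 genes called under DRF, 217 (18%) were also called under NRF in the same direction (85 higher and 132 lower), 207 (17.2%) in the opposite direction (91 higher and 116 lower under DRF) and 781 (64.8%) were not called under NRF. The test of the difference between regimens was called in 631 of the 1205 (52.4%, against 14.5% of all tested genes). These comprised 23 of the 217, all 207 and 401 of the 781. The DRF difference is part of that test, so genes picked by their DRF call are favoured in it. Genes picked for calls of opposite sign are nearly bound to be called, so these shares are description only. The differences in the 2 regimens correlated weakly across genes (Pearson r = 0.155 over 13863 genes and 0.345 over the 1205, genes not being independent replicates).

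The genes with the largest differences between regimens, other than those above, again belonged to both directions. Gpcpd1, a glycerophosphocholine phosphodiesterase, had 71.9 to 99.7 TPM at ZT0 and 40.7 to 53.0 TPM at ZT12 under DRF (-0.76 ± 0.17, adjusted p = 0.00223) and rose under NRF by 1.49 ± 0.17 (DRF minus NRF -2.25 ± 0.23, adjusted p = 5.75e-09). Egln3, an oxygen-sensing prolyl hydroxylase, was higher under DRF (0.76 ± 0.18, adjusted p = 0.00359) and lower under NRF (-1.31 ± 0.18), with a regimen difference of 2.07 ± 0.25 (adjusted p = 1.81e-07). Tuba8, an alpha-tubulin, and Rtn4r, the Nogo receptor, differed by 0.82 ± 0.14 and 1.26 ± 0.33 under DRF and -0.91 ± 0.14 and -1.16 ± 0.33 under NRF (DRF minus NRF 1.73 and 2.42, adjusted p = 5.57e-08 and 0.000256). The DRF call of Rtn4r ended without ZT12 replicate 4 or ZT0 replicate 1 (adjusted p up to 0.0742).

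**Figure D5:**
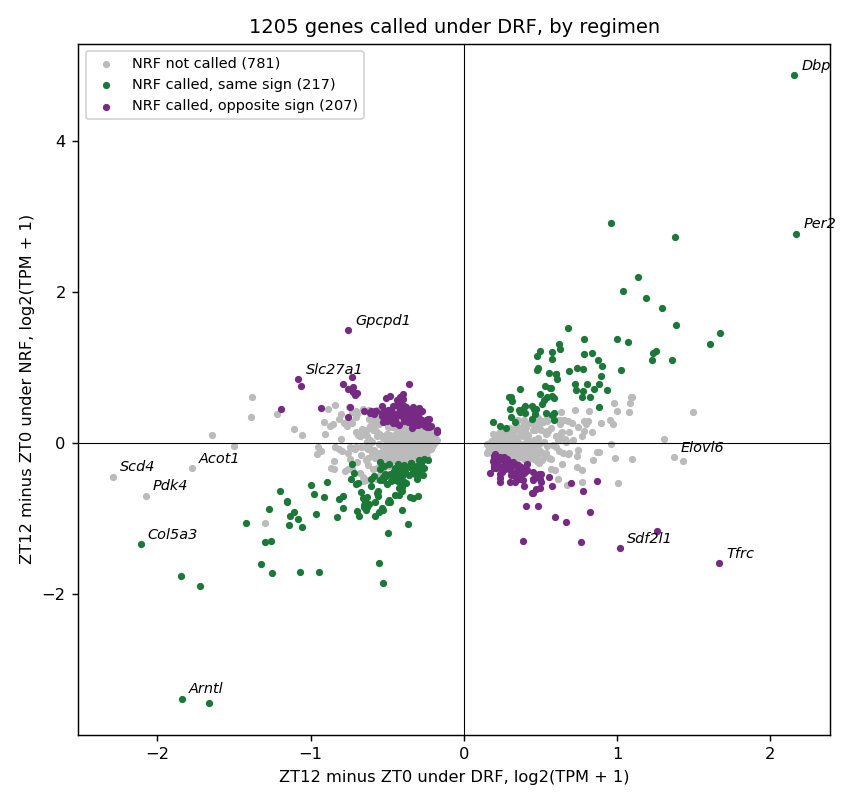
Difference between ZT12 and ZT0 under NRF (vertical axis) against that under DRF (horizontal axis) for the 1205 genes called under DRF, both on the log2(TPM + 1) scale. Colours mark the 217 genes called under NRF in the same direction, the 207 called in the opposite direction and the 781 not called under NRF; Arntl and Per2 lie in the same-direction quadrants and Tfrc in an opposite-direction one.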

How the data were processed

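Polyadenylated RNA of mouse heart was sequenced as 150-base pairs on a NovaSeq from NEBNext Ultra libraries, which do not mark strand, so reads of genes overlapping on opposite strands cannot be told apart (34 of the 131 genes named overlap such a gene). The submitters' processing notes name HISAT2 2.0.5, featureCounts 1.5.0-p3 and build mm10. The deposited values, described as TPM, are on another scale: the authors' value times exon length followed log2(1 + scaled reads), so the unit of the deposited values was treated as other than linear TPM. With union-exon lengths of GENCODE M21 for 22011 of the 22864 genes, and searched lengths for 820 (797 of them on chromosomes 17 to 19), 99.9996% of 1191861 values came out whole within 0.1 reads, and linear TPM was computed from these reads for 22852 genes. Searched lengths were accepted because they gave whole reads, and values of 30000 reads or more were outside this check. A further 21 genes, too abundant for it, kept their annotated length unchecked. Tested on data simulated from the same formula without those 21 genes, the recovery returned 100% of reads and 197 of 198 altered lengths. Genes listed are those above 0 in at least 20 libraries, and 0 pairs of libraries were identical.

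For the main test, limma 3.58.1 in R 4.3.3 was fitted to log2(TPM + 1) of 13863 genes averaging 1 TPM or more, with 14 group means over all 56 libraries (42 residual degrees of freedom), a mean-variance trend and Benjamini-Hochberg adjustment at 0.05. The regimen difference was DRF (ZT12 minus ZT0) minus NRF (ZT12 minus ZT0). Data were also simulated for DRF ZT12 against ZT0 with 13863 genes drawn independently of each other. Of 50 genes raised 1.25-fold 44% were called, and of 50 raised 1.5-fold 76%. Of 50 genes lowered 2-fold 90% were called, and of 50 lowered 3-fold 94%. Among 160 calls 8 were false. Fold size and direction were joined, so rises of 2-fold or 3-fold were not simulated. Shifts in composition shared by many genes were not simulated either. Named genes were the 12 largest non-overlapping differences each way, all 18 clock genes, up to 3 called members each way per list (the 2 most abundant where under 2 were called), the 6 largest regimen differences each way and the 4 largest changes each way shared with NRF outside the clock; further list members are named with their list. The members, lists and comparison were chosen with earlier results of these data known. Some genes are not reported here; they stayed in the fit and were left out of the lists and of the named genes. Promoters came from RefSeq (29 of 37 genes considered had a window).

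Libraries held 29.5 to 53.4 M recovered reads. There were no molecular identifiers, so precision was read from the spread of 4 samples. The labels give no batch. Replicate numbers were not taken to pair the samples, since not every same-numbered correlation of deviations exceeded 0.1: these were 0.26, -0.035, 0.05 and 0.06 under DRF and 0.14, 0.21, -0.0095 and 0.16 under NRF. Alternatives were the pseudocount, the filter, the scaling, the tool, the samples fitted, the reference time and leaving out each replicate.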

Additional observations from a re-analysis of the deposited data

Results flagged for a closer look

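In 10 of 294 groups of 4 libraries examined, 1 library stood apart by Dixon's test at the 95% level, which chance exceeds in about 1 group in 20. At ZT12 these were Nr1d2 in replicate 3 (48.2 TPM), Acss1 in replicate 2 (181 TPM), and Hsph1, Stip1 and Rtn4r in replicate 4 (32.9, 173 and 15.0 TPM). At ZT0 they were Eln and Cldn5 in replicate 3 (46.5 and 152 TPM), and Cd79a, Egln3 and Gpcpd1 in replicate 1 (8.77, 40.2 and 99.7 TPM). The 3 ZT12 replicate 4 values belong to genes whose calls ended without that library (adjusted p = 0.273, 0.183 and 0.0742 by limma). No cause was tested for any of them.

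The change between ZT0 and ZT12 differed between DRF and NRF, by limma's test of the difference at adjusted p below 0.05, in 59 of the named genes, given here as DRF minus NRF on the log2(TPM + 1) scale. In the clock these were, on the negative side, Dbp (-2.72), Per3 (-1.35), Cry2 (-0.89), Ciart (-2.14), Bhlhe41 (-0.64), Nr1d2 (-1.96), Rora (-0.45), Per1 (-2.53), Hlf (-0.74) and Tef (-1.07). On the positive side were Arntl (1.55), Clock (0.71), Cry1 (1.06) and Nfil3 (2.19). Genes of lipid use and synthesis were Acot1 (-1.44), Ucp3 (-1.73), Ehhadh (-0.85), Cpt1a (-1.22), Acsl1 (-0.51), Slc27a1 (-1.93), Gpam (-1.35), Acss1 (-0.44), Scd4 (-1.85), Fdft1 (-0.63) and Elovl6 (1.56). Chaperone genes were Hsph1 (1.58), Chordc1 (1.01), Stip1 (0.96), Sdf2l1 (2.41), Manf (1.72) and Asns (0.76) and, with the other sign, Cirbp (-1.82). In metal handling Tfrc (3.26), Slc39a14 (0.43) and Slc11a2 (0.52) were positive and Slc40a1 (-1.11) and Mt1 (-1.60) negative. FOXO-responsive and autophagy genes were Ccng2 (-1.08), Fbxo21 (-0.77) and Sqstm1 (-1.22).

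Contractile, channel and energy genes that differed were Kcna5 (-1.11), Ankrd1 (-0.99), Myom2 (-0.88), Mylk3 (-0.56), Nadk (0.43) and Nadk2 (-0.50). Vascular, immune and matrix genes were Kdr (0.48), Fcgr1 (0.72), Ccl7 (1.255), Col5a3 (-0.77) and Spon2 (1.79). Others were Zfp36 (-1.13), Npm1 (-0.29), Ncl (-0.37), Psmd4 (-0.32), Rtn4r (2.42), Egln3 (2.07), Tuba8 (1.73) and Gpcpd1 (-2.25). Fdft1, Npm1, Ncl, Cry2, Ciart, Rora, Per1 and Nfil3 were not called under DRF itself, and for Rora, Npm1 and Ncl the difference was below 0.5.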

How the results depend on the processing

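The count of genes called between DRF ZT12 and ZT0 (1205) was 1964 with median-of-ratios scaling, 1642 by limma-voom on recovered reads (792 higher, 850 lower), 1577 from deposited values times length, 1394 without mitochondrial genes, 1179 with a pseudocount of 0.1, 1115 with no filter, 950 at a mean of at least 5 TPM, 728 when only the groups compared were fitted, 509 at adjusted p below 0.01 and 379 with a difference of at least 0.5 required. It was 735 to 1055 with 1 library left out, lowest without DRF ZT0 replicate 1, and 1801 against ZT0 and ZT24 together. For ZT12 against ZT24 (1516) the counts were 2565 with median of ratios, 2310 by voom (1292 higher, 1018 lower), 921 with only the groups compared, 679 at 0.01 and 915 to 1524 with 1 library left out, lowest without DRF ZT24 replicate 1. NRF gave 1322 at 0.01 and 1781 to 2223 with 1 library left out (2353 in all), and the regimen difference 1048 and 1659 to 2040 (2017 in all), its balance of 929 positive and 1088 negative calls turning in 8 settings: to 1431 and 1345 by voom, 845 and 815 at a mean of at least 5 TPM, and 1033 and 1007, 943 and 878, 1018 and 936, 844 and 836, 967 and 907 and 1015 and 960 without DRF ZT12 replicate 1 or 3, DRF ZT0 replicate 3, NRF ZT12 replicate 3 and NRF ZT0 replicate 2 or 4, in that order. The causes were not tested. The replicate block, on numbers that share only a name, gave 1195 genes for DRF ZT12 against ZT0, 1509 against ZT24, 2391 for NRF and 2037 for the regimen difference, and 0 of the 89 called named genes lost the call.

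Of those 89 genes, which the naming rule chose, 53 kept call and direction in all 18 alternatives, 36 lost the call in at least 1 and 0 reversed. Among 31 further called list members, 16 lost the call in at least 1 of the 8 omissions. Fitting only the groups compared ended 20 of the 89 calls, ZT0 and ZT24 as a joint reference 11 and dropping the filter 7. No scaling moved the median of all genes by 0.1 or more. Short or weakly expressed features limit the precision: Gm22107 and Ighj2 rest on a mean of 6.25 and 5.25 reads at ZT0.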

Other observations

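The genes in this section were chosen after their values were seen, and their counts carry no test beyond each gene's own limma p over all genes. Several genes typical of resident tissue macrophages were higher at ZT12 under DRF. Mgl2, a macrophage lectin, had 13.8, 14.3, 15.7 and 12.9 TPM at ZT0 and 26.8, 36.1, 31.4 and 32.0 TPM at ZT12 (1.10 ± 0.17, adjusted p = 2.08e-05), with no overlap between the groups. Lyve1, F13a1 and Cbr2 differed by 0.81 ± 0.17, 0.78 ± 0.20 and 0.74 ± 0.18 (adjusted p = 0.00108, 0.00764 and 0.00489), and the phagocytic receptor Timd4 by 0.65 ± 0.15, adjusted p = 0.00443. Pf4, Fcrls and the monocyte chemokine Ccl2 were called at 0.68 ± 0.20, 0.64 ± 0.20 and 0.78 ± 0.21, in that order. Against ZT24, however, Ccl2 was not called (0.32, adjusted p = 0.358 by limma), and under NRF it was lower at ZT12 (-0.63 ± 0.21). The call of Pf4 ended without ZT12 replicates 2, 3 or 4 or ZT0 replicates 1 or 2 (adjusted p up to 0.101). Fcrls lost its call without ZT12 replicates 2 or 4 or ZT0 replicates 1, 2 or 4 (adjusted p up to 0.120). Ccl2 was no longer called without ZT12 replicate 4 or ZT0 replicate 1 (adjusted p up to 0.0935). The general macrophage markers Csf1r and C1qa were not called (-0.07 and 0.43). ZT12 replicate 2 was the highest library for Mgl2, F13a1, Cbr2, Timd4, Pf4 and Fcrls. It was also highest for the summed adipocyte and mesothelial markers (231.7 and 130.1 TPM). Mgl2, F13a1, Cbr2 and Timd4 kept their calls without it. The part of other tissue in these differences was not tested.

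A few cell cycle genes were also higher. Ccnd1, cyclin D1, had 20, 25.9, 32.7 and 27.5 TPM at ZT0 and 44.9, 53.4, 41.2 and 78.4 TPM at ZT12 (0.99 ± 0.20, adjusted p = 0.000775). Wee1, the mitotic inhibitor kinase and a known clock output, differed by 1.00 ± 0.16, adjusted p = 3.58e-05 under DRF and 1.38 ± 0.16 under NRF. E2f1, Uhrf1 and Mcm5, genes of DNA replication, differed by 0.95 ± 0.24, 1.00 ± 0.28 and 0.82 ± 0.24. The call of E2f1 ended without ZT12 replicate 4 (adjusted p = 0.0665). Uhrf1 lost its call without ZT12 replicates 2 or 4 or ZT0 replicates 1 or 2 (adjusted p up to 0.164). Mcm5 was no longer called without ZT12 replicates 2 or 4 or ZT0 replicates 1 or 4 (adjusted p up to 0.155). The alarmin Il33 was higher in both regimens, by 1.23 ± 0.20 and 1.19 ± 0.20. Some matrix proteases were lower, with -1.16 ± 0.15 for Mmp14, -1.25 ± 0.16 for Adamts4 and -0.74 ± 0.11 for Adamts5 (adjusted p = 5.09e-07, 8.41e-07 and 9.64e-06). Mmp14 and Adamts4 were also lower at ZT12 under NRF (-0.77 ± 0.15 and -1.72 ± 0.16), whereas Adamts5 was not called there (-0.06 ± 0.11). Adamts4 was near the floor, with a mean of 0.284 TPM at DRF ZT12. Neat1, the paraspeckle RNA, differed by -0.79 ± 0.20 under DRF and 0.79 ± 0.20 under NRF, its DRF call ending without ZT12 replicate 4 (adjusted p = 0.0519).

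Of 16 tested protein-coding tubulin genes 10 (62.5%) were higher and 0 lower at ZT12 under DRF, against 3.32% of all genes higher, with a median of 0.47. The median was 0.39 against ZT24, where 5 were called higher and 0 lower, and -0.43 under NRF, where 0 were called higher and 8 lower (10.9% and 17.0% of all genes were called in these comparisons). The call of Tuba1a ended without ZT12 replicates 2 or 4 or ZT0 replicates 1 or 4 (adjusted p up to 0.116). Tubb3 lost its call without ZT12 replicates 2 or 4 or ZT0 replicate 1 (adjusted p up to 0.0848). Tubb4b was no longer called without ZT0 replicate 1 (adjusted p = 0.0581). The call of Tubb6 ended without ZT12 replicate 4 or ZT0 replicate 1 (adjusted p up to 0.112). Tubg1 lost its call without ZT12 replicates 1, 2 or 4 or ZT0 replicates 1 or 2 (adjusted p up to 0.138). Reads may be divided among near-identical tubulins. Of 19 mitochondrial transfer RNA genes 6 were higher (31.6%, median 0.56), but against ZT24 the median was -0.03 and 0 were called (10.9% of all genes), while under NRF 9 were higher and 1 lower (median 0.60; 17.0% of all genes called). The call of mt-Tw ended without any 1 of the 8 libraries (adjusted p up to 0.119). Those of mt-Ti and mt-Tm ended without ZT12 replicates 2, 3 or 4 or ZT0 replicate 1 (adjusted p up to 0.206 and 0.279), that of mt-Ty without ZT12 replicate 1 or ZT0 replicate 4 (up to 0.0881) and that of mt-Tl1 without ZT12 replicate 1 (0.0503). The cause was not tested. By biotype, 20 of 279 tested long intergenic RNAs (7.17%), 16 of 249 antisense RNAs (6.43%), 60 of 629 processed pseudogenes (9.54%) and 0 of 68 miRNA genes were called, against 8.69% of all genes. Of these calls 18 of 20, 15 of 16 and 27 of 60 were lower at ZT12, against 745 of the 1205 over all genes.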
